A study of Mus musculus with 35 samples.

Results

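The NR4A family of orphan nuclear receptors comprises Nr4a1 (Nur77), Nr4a2 (Nurr1) and Nr4a3 (NOR1). These 3 genes were taken by name from the 48709 genes counted in each library, and all 3 were among the 13819 genes with enough reads to be tested. Their levels were followed in 35 libraries of OT-I CTLs, cytotoxic CD8+ T cells whose transgenic T cell receptor recognises an ovalbumin peptide. The CTLs of every group had been primed with antibodies against CD3 and CD28, then expanded with IL-2, the cytokine that sustains their growth. They were collected at 0 h or after 24 h in medium at pH 7.4, pH 7 or pH 6.6, acidified with HCl, and IL-2 was either left out or added at 200 IU/mL, which gives 7 groups of 5 biological replicates numbered 1 to 5. The labels and the methods name no antigen or anti-CD3 antibody in these 24 h cultures. Dead cells were removed on a density gradient before the RNA was extracted.

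NR4A proteins are transcription factors that act without a known natural ligand, so the amount of protein present largely sets their activity. Their genes belong to the immediate early genes, and in T cells they are induced by receptor signals through calcineurin, NFAT and MEF2 factors, and in many cell types by cAMP through CREB. In CD8+ T cells, NR4A factors are known for limiting effector functions during tolerance and exhaustion. Nr4a1 and Nr4a2 can pair with the retinoid X receptors, whereas Nr4a3 is not known to do so.

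The 3 genes lie on separate chromosomes of the mouse genome (GRCm38, GENCODE M21 annotation). Nr4a1 (ENSMUSG00000023034) is at chr15:101254269-101274795 on the plus strand, Nr4a2 (ENSMUSG00000026826) at chr2:57106830-57124003 on the minus strand and Nr4a3 (ENSMUSG00000028341) at chr4:48045153-48086447 on the plus strand. Their exons together cover 3509, 4059 and 5987 bases, respectively. No other annotated gene overlaps those exons on either strand. Of all 50-base stretches of their transcripts, 100% for Nr4a1 and Nr4a2 and 99.85% for Nr4a3 occur in no other gene, so reads can be assigned to each member separately.

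The upstream sequences are shown because the members moved together in some conditions and apart in others. They are RefSeq sequences of build GRCm38.p6, read 5′ to 3′ on the strand of the gene, and each holds only bases upstream of the RefSeq start that lie in no annotated exon of its gene. Capitals mark the CRE core, which is TGACG or CGTCA and forms part of the element bound by CREB, and, in Nr4a2, a MEF2 site.
Nr4a1: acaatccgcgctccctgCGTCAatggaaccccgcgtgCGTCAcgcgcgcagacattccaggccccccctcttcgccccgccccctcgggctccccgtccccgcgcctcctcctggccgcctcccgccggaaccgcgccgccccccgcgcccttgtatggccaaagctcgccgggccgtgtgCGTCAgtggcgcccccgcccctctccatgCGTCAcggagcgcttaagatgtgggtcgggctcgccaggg
Nr4a2: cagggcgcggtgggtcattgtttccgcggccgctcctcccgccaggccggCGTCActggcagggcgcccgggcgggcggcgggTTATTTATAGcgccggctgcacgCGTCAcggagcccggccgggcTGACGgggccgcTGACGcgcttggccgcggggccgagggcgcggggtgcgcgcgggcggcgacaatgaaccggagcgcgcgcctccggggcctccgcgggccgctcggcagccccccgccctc
Nr4a3: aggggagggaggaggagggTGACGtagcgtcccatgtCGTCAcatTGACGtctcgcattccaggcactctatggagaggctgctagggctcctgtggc
The stretch of Nr4a1 is chr15:101266596-101266845, directly before its RefSeq start site and inside an intron of longer annotated transcripts. For Nr4a2 it is chr2:57124004-57124253, directly before the start site. For Nr4a3 it is chr4:48045055-48045152, which ends 153 bases before the RefSeq start site because a longer transcript starts there.

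Counted from 250 bases before to 50 bases after the RefSeq start, each of the 3 promoters held 4 CRE cores on either strand. Among the 32851 RefSeq promoters of the same length, 20.8% held at least 1 CRE core and 0.231% held 4 or more. This cutoff of 4 equals the number found in the members, and the promoters were not matched to them in base composition, so enrichment was not tested. The cores of Nr4a1 began 233, 213, 69 and 40 bases upstream of the start, those of Nr4a2 200, 144, 123 and 111 bases upstream, and those of Nr4a3 231, 213, 205 and 147 bases upstream. The last core of Nr4a3 lies in the longer exon and is not printed. The complete CRE (TGACGTCA), held by 1.79% of all promoters, was in none of the 3, and neither was the NBRE (AAAGGTCA, held by 1.51%), the element that NR4A proteins bind as monomers. A CArG box, held by 1.63% of promoters, was also not found. The MEF2 site, held by 3.19% of promoters, was found once, in Nr4a2, from 167 to 158 bases upstream. These are matches of letters and not measured binding sites. The 3 windows were rich in G and C, which made up 72.3% of the bases for Nr4a1, 81.7% for Nr4a2 and 64.7% for Nr4a3.

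Levels are given as CPM, the reads of a gene scaled to a library total of 1000000 reads on genes, after normalization by the TMM method. Nr4a1 was the lowest of the 3 and was scarce in every group except those at pH 6.6. At 0 h, its level in replicates 1 to 5 was 2.93, 2.67, 2.45, 1.06 and 1.68 CPM. After 24 h at pH 7.4 without IL-2 it was 1.42, 0.825, 0.932, 1.04 and 1.37 CPM, and at pH 7 without IL-2 it was 0.924, 1.66, 0.708, 1.39 and 1.53 CPM. With IL-2, the levels at these pH values lay in the same range. They were 1.05, 0.799, 0.739, 1.74 and 2.39 CPM at pH 7.4 and 1.152, 2.03, 1.33, 2.07 and 1.90 CPM at pH 7. At pH 6.6, Nr4a1 was 13.7, 23.6, 23.9, 17.02 and 18.5 CPM without IL-2. It was 7.92, 22.99, 17.1, 17.8 and 17.4 CPM at pH 6.6 with IL-2. Every library at pH 6.6 thus lay above every library of the other 5 groups. In order of their means, the groups were pH 7.4 (1.12 ± 0.266 CPM, SD, n = 5), pH 7, pH 7.4 with IL-2, pH 7 with IL-2 and 0 h (2.16 ± 0.774), whose neighbours all overlapped, followed after a gap by pH 6.6 with IL-2 (16.6 ± 5.44) and pH 6.6 without IL-2 (19.4 ± 4.37), which overlapped. The lowest Nr4a1 count of any library was 18 reads.

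Nr4a2 showed the same separation with a higher base level. At 0 h it was 6.61, 8.35, 6.66, 7.04 and 5.97 CPM. Without IL-2 it was 2.78, 5.73, 3.60, 6.72 and 4.92 CPM at pH 7.4, and 2.94, 5.01, 3.76, 4.47 and 5.04 CPM at pH 7. With IL-2 both groups lay somewhat higher, and neighbouring groups overlapped. The levels with IL-2 were 5.35, 7.39, 6.81, 9.27 and 6.64 CPM at pH 7.4 and 5.96, 8.86, 8.80, 10.8 and 10.9 CPM at pH 7. At pH 6.6, they were 22.97, 42.3, 47.8, 28.03 and 31.4 CPM without IL-2 and 15.3, 34.7, 38.6, 23.7 and 24.2 CPM with IL-2. The lowest library at pH 6.6 was again above the highest library of any other group. The order of the means was pH 7 (4.25 ± 0.896 CPM, SD, n = 5), pH 7.4 (4.75 ± 1.59), 0 h (6.93 ± 0.884), pH 7.4 with IL-2 (7.09 ± 1.43), pH 7 with IL-2 (9.07 ± 2.01), pH 6.6 with IL-2 (27.3 ± 9.31) and pH 6.6 without IL-2 (34.5 ± 10.3), and the only neighbours that did not overlap were pH 7 with IL-2 and pH 6.6 with IL-2.

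Nr4a3 followed another order. At 0 h it was 10.7, 20.98, 18.4, 20.5 and 18.1 CPM. Without IL-2 it was 6.37, 10.2, 5.93, 15.8 and 9.59 CPM at pH 7.4, and 5.96, 8.19, 5.29, 9.51 and 8.39 CPM at pH 7. These 3 groups were the low ones. The remaining 4 groups overlapped with each other and lay above them. Nr4a3 was 28.02, 49.5, 45.7, 27.7 and 36.5 CPM at pH 6.6 without IL-2. With IL-2 it was 26.4, 32.9, 27.8, 41.9 and 31.7 CPM at pH 7.4, 25.1, 30.3, 22.7, 38.5 and 36.2 CPM at pH 7, and 21.03, 42.1, 39.6, 27.01 and 24.0 CPM at pH 6.6. The order of the means was pH 7 (7.47 ± 1.77 CPM, SD, n = 5), pH 7.4 (9.57 ± 3.96), 0 h (17.7 ± 4.14), pH 7 with IL-2 (30.6 ± 6.84), pH 6.6 with IL-2 (30.8 ± 9.52), pH 7.4 with IL-2 (32.1 ± 6.08) and pH 6.6 without IL-2 (37.5 ± 9.99), and the only neighbours without overlap were 0 h and pH 7 with IL-2. The highest Nr4a3 count in a library was 1516 reads.

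**Figure D1:**
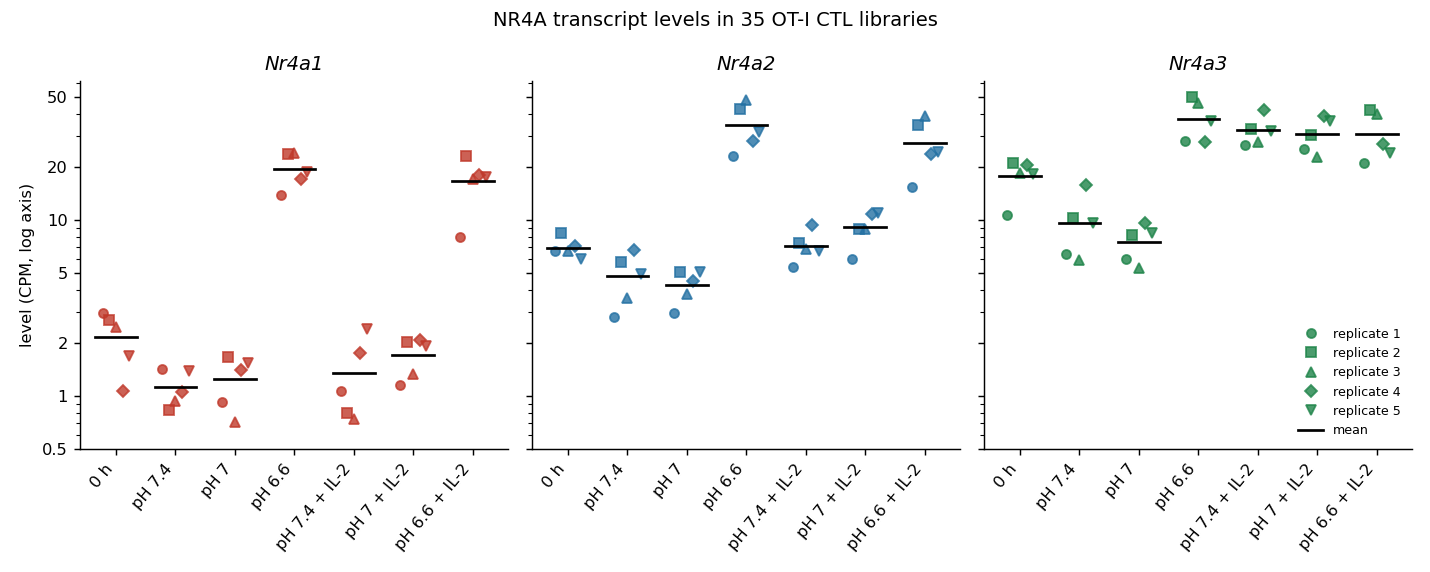
Level of each NR4A gene in the 35 libraries (CPM, log axis), by group, with a symbol for each replicate number and a bar at the mean of 5. Nr4a1 and Nr4a2 at pH 6.6 lie above all other libraries, from 7.92 CPM and 15.3 CPM upward, whereas Nr4a3 is low only at 0 h and at pH 7.4 and pH 7 without IL-2.

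The library at pH 6.6 with IL-2 from replicate 1 was the lowest of its group for all 3 members, and it was also the smallest of the 35, with 16721319 reads on genes against a median of 24730020 and a highest total of 34033340. The libraries expressed the defining CD8+ T cell genes, with Cd8a from 674 to 1596 CPM. Ms4a1 (B cells) and Hbb-bs (erythroid cells) were at 0 in all 35 libraries, Lyz2 and Csf1r (myeloid cells) were at 0 in 28 and 29 libraries. Of the 3 NK cell markers, Ncr1 was at 0 in 25 libraries, while Klrb1c (8.27 to 94.9 CPM) and Eomes (111.3 to 662 CPM), which activated CD8+ T cells can also express, were at 0 in none. Their summed level had a median of 668 CPM at pH 7.4 and 225 CPM at pH 6.6 with IL-2, and of 174 CPM and 126 CPM without IL-2. Of the 2 CD4+ T cell markers, Cd4 was at 0 in 10 libraries and at most 2.48 CPM, and Zbtb7b ranged from 15.9 to 60.3 CPM. The summed level of the 5 myeloid markers was at most 3.98 CPM in any library and that of the 4 B cell markers at most 6.10 CPM. The summed level of the 6 CD8+ T cell markers, among them the cytotoxic genes Gzmb and Prf1, was lower at pH 6.6 with IL-2 (median 3429 CPM) than at pH 7.4 with IL-2 (median 9767 CPM). Reads outside annotated genes ranged from 7.34% to 8.83% at pH 6.6 with IL-2 and from 3.91% to 5.18% at pH 7.4 with IL-2, whereas without IL-2 the ranges at pH 6.6 (6.47% to 9.19%) and pH 7.4 (7.70% to 10.2%) overlapped. The part of these differences in the NR4A results was not tested. In such bulk RNA, fewer cells that express a gene and less RNA per cell cannot be told apart.

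The effect of acidity in the presence of IL-2 was large for Nr4a1 and Nr4a2 and was not detected for Nr4a3. At pH 6.6 relative to pH 7.4 with IL-2, Nr4a1 was 12.4-fold higher (log2 fold change 3.63, SE 0.275, adjusted p = 1.67e-13, edgeR's quasi-likelihood test with Benjamini-Hochberg adjustment) in 5 of 5 pairs of same-numbered replicates. It was the rise of rank 90 among the 13819 genes tested. Nr4a2 was 3.78-fold higher (log2 1.92, SE 0.166, adjusted p = 3.41e-12), also in 5 of 5 pairs. Neither gene's groups overlapped. The share of all genes tested whose groups did not overlap, or that agreed in 5 of 5 pairs, was not counted for any comparison. For Nr4a3 the log2 fold change was -0.06 with a 95% interval from -0.43 to 0.30 (adjusted p = 0.76), and 2 of 5 pairs were higher. This interval does not include a rise as large as that of Nr4a2. The comparison changed much of the transcriptome, with 76.3% of all tested genes past the threshold in either direction, so that 2 of 3 members called is near the background. By size, the rise of Nr4a2 was of rank 721. Against pH 7 with IL-2, where 72.4% of genes passed, Nr4a1 rose by 3.27 on the log2 scale (9.68-fold, adjusted p = 1.12e-12) and Nr4a2 by 1.57 (2.96-fold, adjusted p = 2.87e-10), while Nr4a3 differed by 0.01 (95% interval -0.35 to 0.38, adjusted p = 0.961).

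Without IL-2, all 3 members rose at pH 6.6. The fold over pH 7.4 was 16.8 for Nr4a1 (log2 4.07, SE 0.279, adjusted p = 6.76e-14), the rise of rank 16 among all genes tested. It was 7.28 for Nr4a2 (log2 2.86, SE 0.173, adjusted p = 2.8e-15) and 4.03 for Nr4a3 (log2 2.01, SE 0.190, adjusted p = 1.15e-10). Each was higher in 5 of 5 pairs, and no group overlapped with its counterpart at pH 7.4. In this comparison 67.0% of all genes passed. Relative to pH 7 without IL-2, where 66.6% passed, the log2 fold changes were 3.96 for Nr4a1 (adjusted p = 1.19e-13), 3.01 for Nr4a2 (adjusted p = 1.62e-15) and 2.35 for Nr4a3 (adjusted p = 7.15e-12).

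Milder acidity did not change any member past the threshold. Between pH 7 and pH 7.4 with IL-2, where 19% of genes passed, the log2 difference was 0.36 for Nr4a1 (95% interval -0.28 to 0.99, adjusted p = 0.462), 0.35 for Nr4a2 (0.006 to 0.69, adjusted p = 0.15) and -0.07 for Nr4a3 (-0.43 to 0.29, adjusted p = 0.822). Nr4a2 was higher at pH 7 in 5 of 5 pairs, and it passed (adjusted p = 0.00992) when only the groups compared were fitted. Without IL-2, where 1.68% of genes passed, the differences were 0.11 for Nr4a1 (adjusted p = 0.995), -0.15 for Nr4a2 (adjusted p = 0.989) and -0.34 for Nr4a3 (adjusted p = 0.774). Nr4a3 was lower at pH 7 in 5 of 5 pairs and had an adjusted p of 0.0497 when only the groups compared were fitted. The step from pH 7 to pH 6.6 therefore held most of the rise of Nr4a1 and Nr4a2 between pH 7.4 and pH 6.6, on the log2 scale.

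The effect of IL-2 itself was seen mainly in Nr4a3. At pH 7.4, IL-2 raised Nr4a3 by 3.43-fold (log2 1.78, SE 0.189, adjusted p = 4.48e-10) and Nr4a2 by 1.51-fold (log2 0.60, SE 0.176, adjusted p = 0.00267), each in 5 of 5 pairs. The Nr4a2 groups overlapped and the Nr4a3 groups did not. Nr4a1 differed by 0.20 on the log2 scale (95% interval -0.47 to 0.88, adjusted p = 0.574), with 2 of 5 pairs higher. This comparison moved 80.4% of all genes past the threshold. At pH 7, where 77.2% of genes passed, IL-2 raised Nr4a3 by 4.12-fold (log2 2.04, adjusted p = 3.52e-11) and Nr4a2 by 2.13-fold (log2 1.09, adjusted p = 1.16e-06). Nr4a1 differed by 0.45 (95% interval -0.19 to 1.08, adjusted p = 0.189) and was higher in 5 of 5 pairs, with an adjusted p of 0.0206 when only the groups compared were fitted.

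At pH 6.6, IL-2 raised none of the 3 genes. The log2 difference was -0.24 for Nr4a1 (95% interval -0.69 to 0.21, adjusted p = 0.474), -0.35 for Nr4a2 (-0.66 to -0.04, adjusted p = 0.0966) and -0.30 for Nr4a3 (-0.66 to 0.07, adjusted p = 0.24). Nr4a2 and Nr4a3 were lower with IL-2 in 5 of 5 pairs, and in a fit of only the groups compared they passed, with adjusted p values of 0.000617 and 0.00764. Of all genes, 23.7% passed in this comparison. The intervals do not include the rise of Nr4a3 that IL-2 gave at pH 7.4.

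The dependence of the acid response on IL-2 was tested directly, as the difference between the log2 fold change of pH 6.6 over pH 7.4 with IL-2 and without it. Among all genes, 67.0% passed this interaction test. For Nr4a3 the response was smaller with IL-2 by 2.07 on the log2 scale (interaction -2.07, SE 0.259, adjusted p = 2.7e-08), with the sign shared by 5 of 5 replicates. For Nr4a2 it was smaller by 0.95 (interaction -0.95, SE 0.234, adjusted p = 0.000673), again in 5 of 5 replicates. For Nr4a1 the difference was -0.44 (95% interval -1.25 to 0.37, adjusted p = 0.33), and the data do not tell its responses with and without IL-2 apart. The same interaction term is the difference between the IL-2 effects at pH 6.6 and at pH 7.4.

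**Figure D2:**
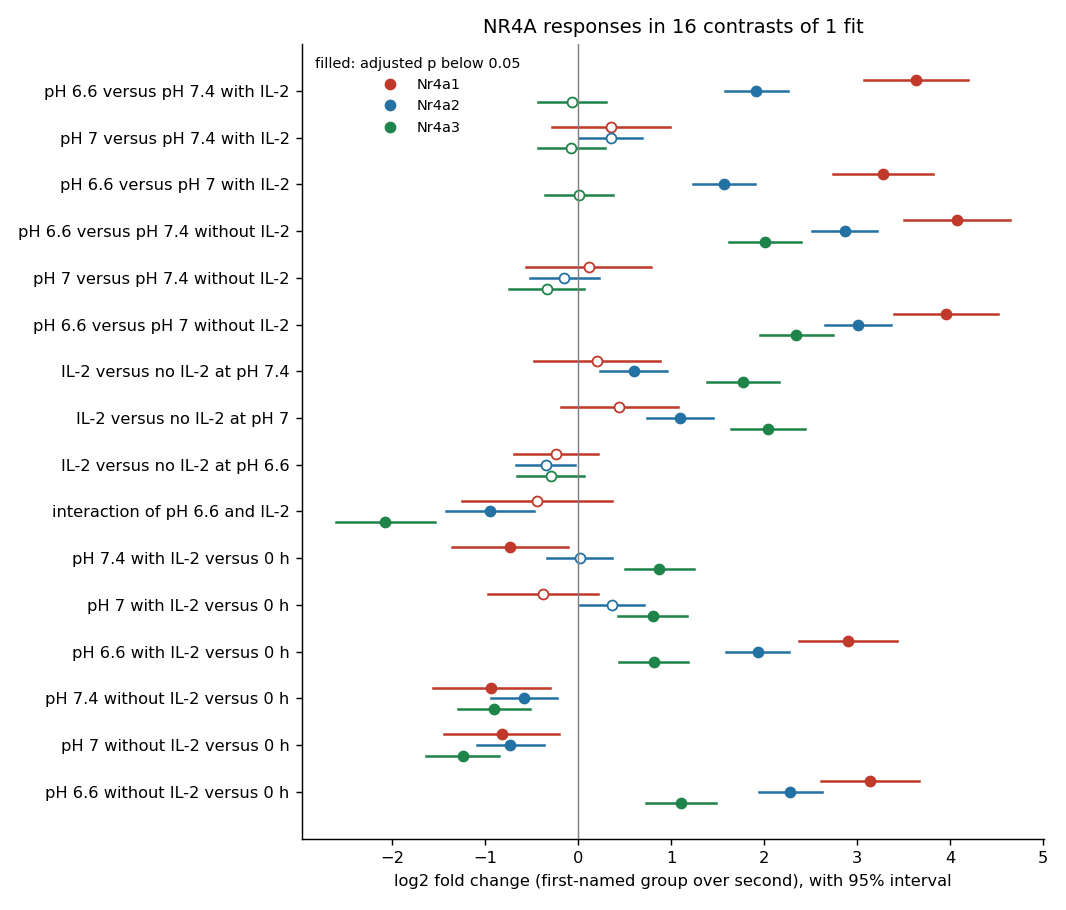
Log2 fold change (x axis) with its 95% interval for each NR4A gene in the 16 contrasts of the edgeR fit (rows), where a filled point has an adjusted p below 0.05. Nr4a1 is farthest right in the contrasts of pH 6.6 with pH 7.4, at 3.63 with IL-2 and 4.07 without. Nr4a3 lies at -0.06 and 2.01 in the same contrasts.

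The 24 h groups were also compared with the start of the culture. At pH 7.4 with IL-2, Nr4a3 was 1.83-fold above 0 h (log2 0.87, adjusted p = 0.000127) in 5 of 5 pairs, whereas Nr4a2 differed by 0.02 (95% interval -0.33 to 0.37, adjusted p = 0.946). Nr4a1 fell to a log2 fold change of -0.73 (adjusted p = 0.0388), but 2 of 5 pairs were higher, and the call was lost without replicate 1 (-0.51, adjusted p = 0.16), without replicate 2 (-0.52, adjusted p = 0.188) and without replicate 3 (-0.51, adjusted p = 0.198). Of all genes, 59.9% passed. At pH 7 with IL-2, where 54.3% passed, Nr4a3 was 1.74-fold above 0 h (log2 0.80, adjusted p = 0.000411), and the differences of Nr4a1 (-0.38, adjusted p = 0.285) and Nr4a2 (0.36, adjusted p = 0.0668) did not pass. The Nr4a2 difference passed without replicate 1 (0.48, adjusted p = 0.0346).

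Without IL-2, all 3 members fell below 0 h at pH 7.4 and at pH 7. At pH 7.4, where 75.2% of genes passed, Nr4a1 was 1.91-fold lower (log2 -0.94, adjusted p = 0.00739), Nr4a2 was 1.497-fold lower (log2 -0.58, adjusted p = 0.00376) and Nr4a3 was 1.87-fold lower (log2 -0.90, adjusted p = 8.64e-05). All 3 were lower in 5 of 5 pairs, and the groups overlapped. The call for Nr4a1 was lost without replicate 2 (-0.72, adjusted p = 0.0584) and the call for Nr4a2 without replicate 1 (-0.37, adjusted p = 0.0936). At pH 7, where 75.4% passed, the log2 fold changes were -0.82 for Nr4a1 (adjusted p = 0.0153), -0.73 for Nr4a2 (adjusted p = 0.000453) and -1.24 for Nr4a3 (adjusted p = 9.76e-07). The Nr4a1 call was lost without replicate 1 (-0.52, adjusted p = 0.122) and without replicate 3 (-0.63, adjusted p = 0.0881).

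At pH 6.6, all 3 members were above 0 h with and without IL-2. With IL-2, where 68.5% of genes passed, Nr4a1 was 7.46-fold higher (log2 2.90, adjusted p = 1.77e-11), Nr4a2 was 3.82-fold higher (log2 1.93, adjusted p = 6.48e-12) and Nr4a3 was 1.75-fold higher (log2 0.81, adjusted p = 0.00023). Without IL-2, where 75.1% passed, Nr4a1 was 8.79-fold (log2 3.14, adjusted p = 1.32e-12), Nr4a2 4.87-fold (log2 2.28, adjusted p = 5.71e-14) and Nr4a3 2.15-fold higher (log2 1.11, adjusted p = 2.33e-06). Each was higher in 5 of 5 pairs with no overlap between groups. The 6 comparisons with 0 h share the 0 h libraries, and the comparisons of pH share groups in the same way. Their values are therefore not independent.

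The changes altered the make-up of the family. Levels of different genes were compared per kilobase of exon. The summed level of the 3 genes was 5.29 ± 0.758 CPM per kilobase at 0 h (SD, n = 5). Without IL-2 it was 3.09 ± 1.01 at pH 7.4, 2.65 ± 0.593 at pH 7 and 20.3 ± 5.35 at pH 6.6. With IL-2 it was 7.50 ± 1.44 at pH 7.4, 7.82 ± 1.67 at pH 7 and 16.6 ± 5.09 at pH 6.6. The replicate 1 library at pH 6.6 with IL-2 had a sum of 9.54, below the highest libraries at pH 7.4 (9.77) and pH 7 (9.69) with IL-2, so these groups overlapped, whereas the groups without IL-2 did not. Nr4a3 made up 71.6 ± 1.45% of the sum at pH 7.4 with IL-2, against 31.3 ± 3.69% at pH 6.6 with IL-2. Nr4a1 made up 5.05 ± 2.39% and 28.5 ± 4.84% of it, and Nr4a2 23.3 ± 1.73% and 40.3 ± 2.92%, in the same groups. Without IL-2, the share of Nr4a3 was 50.8 ± 4.14% at pH 7.4 and 30.9 ± 2.13% at pH 6.6. Nr4a1 rose from 11.4 ± 5.00% to 27.4 ± 1.399%, and Nr4a2 made up 37.9 ± 4.23% and 41.6 ± 2.03%. At pH 6.6 the shares with and without IL-2 thus overlapped for every member.

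**Figure D3:**
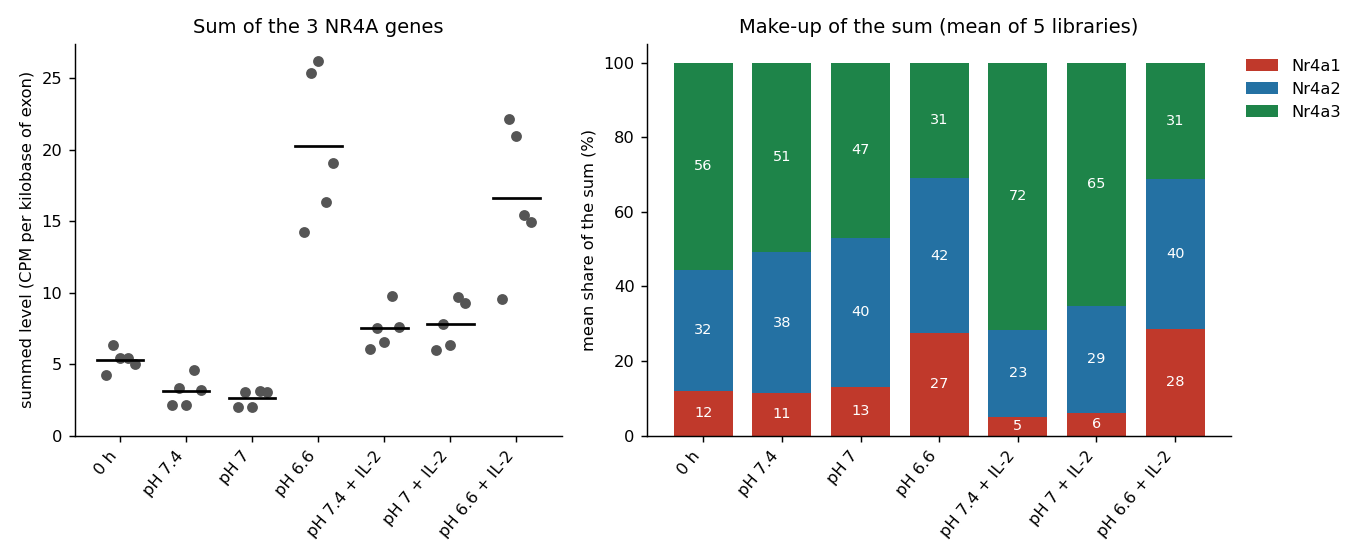
Left, summed level of Nr4a1, Nr4a2 and Nr4a3 per library (points, CPM per kilobase of exon) with the mean of each group (bar); right, mean share of each gene in that sum (%, 5 libraries a group). Nr4a3 is the largest part at pH 7.4 with IL-2 (71.6%) and Nr4a2 at pH 6.6 with IL-2 (40.3%).

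The unequal responses were tested as ratios between members within a library, with two-sided exact permutation tests of 5 against 5 libraries adjusted over 15 tests. With IL-2, the log2 ratio at pH 6.6 minus that at pH 7.4 was 1.73 for Nr4a1 over Nr4a2, 3.71 for Nr4a1 over Nr4a3 and 1.98 for Nr4a2 over Nr4a3 (exact permutation p = 0.00794 and adjusted p = 0.017 for each), and all were higher in 5 of 5 pairs. These tests do not use the pairing by replicate number. An exact sign-flip test over the 5 pairs cannot go below p = 0.0625, and the 10 ratios called here had an exact adjusted p of 0.0938 in it. All 10 also lost their call without replicate 1, 2 or 3, where the exact adjusted p lay from 0.0536 to 0.0857. Without IL-2, these differences were 1.16 (exact permutation, adjusted p = 0.0238), 2.01 (adjusted p = 0.017) and 0.85 (adjusted p = 0.017). IL-2 at pH 7.4 moved Nr4a1 over Nr4a3 by -1.67 (exact permutation, adjusted p = 0.0238) and Nr4a2 over Nr4a3 by -1.19 (adjusted p = 0.017), while the change of -0.47 in Nr4a1 over Nr4a2 did not pass (adjusted p = 0.367). At pH 6.6, IL-2 moved none of these ratios past the threshold, with differences of 0.09, 0.03 and -0.06 (exact permutation, adjusted p of 0.621, 0.881 and 0.621). Between 0 h and pH 7.4 with IL-2, the ratio of Nr4a1 to Nr4a3 fell by 1.58 on the log2 scale (exact permutation, adjusted p = 0.0238) and that of Nr4a2 to Nr4a3 fell by 0.85 (adjusted p = 0.017). The ratio of Nr4a1 to Nr4a2 differed by -0.72 (adjusted p = 0.141).

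Over all 35 libraries, the correlation of log2 levels was highest for Nr4a1 and Nr4a2 by Pearson r (r = 0.927, Spearman rho = 0.772) and for Nr4a2 and Nr4a3 by Spearman rho (r = 0.767, rho = 0.853). For Nr4a1 and Nr4a3 it was the lowest by both measures (r = 0.562, rho = 0.587). These values include the differences between the 7 groups that the libraries share. Once group and replicate number were taken out, r was 0.435 for Nr4a1 and Nr4a2, 0.742 for Nr4a2 and Nr4a3 and 0.237 for Nr4a1 and Nr4a3. The pair that covaried most among libraries of the same group was therefore Nr4a2 and Nr4a3. Outside pH 6.6, Nr4a1 rested on only 18 to 75 reads per library, and the part of counting error in its lower r was not tested.

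Among 9005 other well-expressed genes, those most like each member over the 35 libraries were listed by Pearson r of log2 levels. For Nr4a1 they were Ddx23 (0.957), Dnajb6 (0.954), Vopp1 (0.946), D16Ertd472e (0.942) and Trbd1 (0.940). For Nr4a2 they were Vopp1 (0.960), Aaas (0.948), Nfyb (0.947), Ddx23 (0.936) and D16Ertd472e (0.935). Vopp1, Ddx23 and D16Ertd472e thus appeared for both, and their own log2 fold changes at pH 6.6 over pH 7.4 were 1.03, 0.82 and 1.21 with IL-2 and 1.37, 1.32 and 1.76 without. For Nr4a3 they were Nup50 (0.934), Wbp11 (0.921), Cops4 (0.917), Vcl (0.915) and Nup98 (0.914), whose acid responses were between -0.24 and 0.27 with IL-2 and between 0.83 and 1.36 without. By Spearman rho, the genes listed for Nr4a1 had lower values, from 0.643 (Dnajb6) to 0.821 (Trbd1). Those for Nr4a2 had rho from 0.831 to 0.887, and those for Nr4a3 from 0.879 to 0.929.

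By mean level per kilobase among 49 nuclear receptor genes, of which Nr1h2 (LXRβ) was the highest in all 7 groups, Nr4a3 was at rank 7, Nr4a2 at rank 12 and Nr4a1 at rank 21 at pH 7.4 with IL-2. At pH 6.6 with IL-2 the ranks were 11, 9 and 12. Without IL-2, they went from 15, 16 and 22 at pH 7.4 to 10, 9 and 11 at pH 6.6. The retinoid X receptors, partners of Nr4a1 and Nr4a2, moved in opposite directions. Rxrb was 2.08-fold higher at pH 6.6 with IL-2 (log2 1.06, adjusted p = 1.07e-10) and 1.79-fold higher without IL-2 (adjusted p = 2.62e-08). Rxra, about 7.01 CPM at pH 7.4 with IL-2, fell by 0.62 on the log2 scale (adjusted p = 7.99e-05), while its fall of 0.32 without IL-2 (adjusted p = 0.0298) lost the call with RLE scaling (adjusted p = 0.0569), with a filter of 1 count (0.0563), without the replicate block (0.172), without replicate 1 (0.0613) and without replicate 3 (0.197). Rxrg had too few reads to be tested. Of the 43 remaining receptors, 21 could be tested, and 13 rose and 5 fell at pH 6.6 with IL-2 (median log2 fold change 0.82, against -0.07 over all genes tested), whereas 9 rose and 6 fell without IL-2 (median -0.03, as over all genes). Of all genes tested, 35.4% rose and 40.9% fell at pH 6.6 with IL-2, and 31.6% rose and 35.4% fell without it, so that counts of called genes are read against these shares here and for the lists that follow. Among them the retinoic acid receptor Rarg rose by 2.52 on the log2 scale with IL-2 and by 0.84 without. The clock repressor Nr1d2 rose by 2.20 and 0.36, whereas the thyroid hormone receptor Thra rose by 2.19 with IL-2 and had a difference of -0.14 without (adjusted p = 0.272).

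The known inputs to NR4A transcription were listed next. Of 15 tested calcineurin, NFAT and MEF2 genes, 7 were higher and 4 lower at pH 6.6 with IL-2 (median log2 fold change 0.17) and 4 were higher and 4 lower without IL-2, where the shares of all genes called were 76.3% and 67.0%. Hdac9 had a mean log2 CPM below 1 and is named after its values were seen. It differed by -1.58 on the log2 scale with IL-2 (adjusted p = 0.017) and by -2.41 without (adjusted p = 1.64e-05). Ppp3ca, likewise named after its values were seen, fell by 0.65 without IL-2 (adjusted p = 1.4e-06) and did not pass with it (0.17, adjusted p = 0.141). Rcan1, Nfatc2 and Ppp3r1 are also named after their values were seen. Their log2 fold changes with IL-2 were -0.61 (adjusted p = 1.94e-06), -0.49 (adjusted p = 3.71e-05) and -0.31 (adjusted p = 0.0121). Without IL-2 they were -0.77 (adjusted p = 4.59e-08), -0.26 (adjusted p = 0.0208) and 0.08, which did not pass (adjusted p = 0.55). Among members whose mean log2 CPM was 1 or more, the largest changes with IL-2 were in Hdac5 (7.36-fold higher, adjusted p = 2.65e-17), Hdac7 (2.18-fold higher, adjusted p = 4.12e-09) and Mef2d (2.09-fold higher, adjusted p = 8.43e-12). HDAC5 and HDAC7 are class IIa deacetylases that repress MEF2 factors. Nfatc3, which carries calcineurin signals to the nucleus, was 1.63-fold higher with IL-2 (adjusted p = 6.88e-07) and did not pass without it (log2 0.20, adjusted p = 0.113). The number of members that fell with IL-2 went from 4 to 2 without replicate 1 and to 2 without replicate 2. IL-2 at pH 7.4 raised 4 and lowered 10 of the 15, and at pH 6.6 it raised 1 and lowered 2. Of all genes, IL-2 raised 39.3% and lowered 41.1% at pH 7.4, and raised 13.2% and lowered 10.6% at pH 6.6.

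Of 13 CREB inputs and cAMP-responsive genes, 10 rose and 1 fell at pH 6.6 with IL-2 (median log2 fold change 0.79), and 8 rose and 3 fell without IL-2 (median 0.47, against -0.03 over all genes). The shares of all genes that rose were 35.4% and 31.6%. The 3 that fell without IL-2 are named after their values were seen. They were Creb1 (log2 -0.38, adjusted p = 0.000809), Crtc1 (-1.01, adjusted p = 8.36e-08) and Pde4a (-0.63, adjusted p = 0.000397). With IL-2, Creb1 rose (0.40, adjusted p = 0.000373), while Crtc1 (-0.19, adjusted p = 0.211) and Pde4a (-0.05, adjusted p = 0.773) did not pass. These RNA levels do not measure CREB activity. In protein assays, the study reports neither phosphorylation nor accumulation of CREB and CREM at low pH, which is a separate measure from these RNA levels. The phosphodiesterases Pde4b and Pde4d, which degrade cAMP, were 7.10-fold (adjusted p = 7.54e-18) and 6.66-fold higher (adjusted p = 1.17e-19) with IL-2, and 2.07-fold and 1.999-fold higher without. The clock gene Per1 was 4.71-fold higher with IL-2 (adjusted p = 6.8e-13) and 3.40-fold higher without. Rgs2, a regulator of G protein signalling, was 3.41-fold higher with IL-2 and 1.34-fold higher without. IL-2 at pH 7.4 lowered 9 of the 13 and raised 4 (median -0.71), and at pH 6.6 it lowered 3 and raised 0, while 80.4% and 23.7% of all genes were called. The 4 genes raised by IL-2 at pH 7.4, named after their values were seen, were Atf1 (log2 0.61), Crem (0.49), Sik1 (0.59) and Dusp1 (0.57). Of these, Crem, Sik1 and Dusp1 rose at pH 6.6 both with IL-2 (log2 1.17, 1.44 and 0.79) and without it (1.82, 2.32 and 1.496), whereas Atf1 fell with IL-2 (-0.55) and did not pass without it (0.13, adjusted p = 0.0886).

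Of 19 other immediate early genes, 9 rose, 4 fell and 6 did not pass at pH 6.6 with IL-2 (median log2 fold change 0.51), and 9 rose, 3 fell and 7 did not pass without IL-2 (median 0.43). The share called was 76.3% of all genes with IL-2 and 67.0% without. Without replicate 4, 5 rose without IL-2. Fosl2, a partner of Jun proteins in AP-1, had a 5.00-fold rise with IL-2 (adjusted p = 5.65e-20) and a 9.66-fold rise without (adjusted p = 3.97e-22). Zfp36, which destabilises cytokine mRNAs, was 2.81-fold higher with IL-2 (adjusted p = 2.75e-06), whereas its difference without IL-2 did not pass (log2 0.40, adjusted p = 0.147). Jund was lower, by 1.16 with IL-2 (adjusted p = 1.41e-08) and 0.62 without (adjusted p = 0.000465) on the log2 scale. Egr2, Egr3 and Atf3 are named after their values were seen. Without IL-2, Egr2 fell by 2.21 (adjusted p = 0.0014) and Egr3, whose mean log2 CPM was below 1, by 3.28 (adjusted p = 2.38e-08). Atf3 rose by 3.44 without IL-2 (adjusted p = 3.71e-16). With IL-2, the log2 differences were 0.50 for Egr2 (adjusted p = 0.392), -0.82 for Egr3 (adjusted p = 0.0486) and 0.73 for Atf3 (adjusted p = 6.24e-05). Fosb had a log2 difference of -1.36 with IL-2 that did not pass (adjusted p = 0.0765), although all 5 pairs were lower, and it passed in a fit of only the groups compared (adjusted p = 4.67e-06). IL-2 raised 11 of the 19 at pH 7.4 (median 0.74) and 10 at pH 6.6 (median 0.76), where it raised 39.3% and 13.2% of all genes. At pH 6.6, where 10 immediate early genes rose with IL-2 and 0 fell, no NR4A member passed.

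Of 15 tested genes tied to NR4A factors in T cells, 6 rose and 8 fell at pH 6.6 with IL-2 (median log2 fold change -0.30), and 8 rose and 5 fell without IL-2 (median 0.42), beside 76.3% and 67.0% of all genes called in either direction. The inhibitory receptors Pdcd1 (PD-1) and Tigit were 3.45-fold (adjusted p = 3.47e-14) and 3.68-fold higher (adjusted p = 8.24e-18) with IL-2 and 2.33-fold and 2.30-fold higher without. Bcl2l11, which encodes the death-promoting protein BIM, was 8.22-fold higher with IL-2 (adjusted p = 1.54e-19) and 2.34-fold higher without. Ikzf2 (Helios) was 17.5-fold higher with IL-2 (adjusted p = 8.35e-19) and 1.55-fold higher without. Others fell with IL-2, and 3 of them are named here after their values were seen. Havcr2 (TIM-3), an inhibitory receptor, fell by 1.14 on the log2 scale (adjusted p = 1.73e-09), Tox, a transcription factor of exhausted T cells, by 1.18 (adjusted p = 1.72e-08), and Entpd1 (CD39), which degrades extracellular ATP, by 0.61 (adjusted p = 1.3e-07). Without IL-2, Tox fell by 0.73 (adjusted p = 0.000133), Entpd1 rose by 0.42 (adjusted p = 8.38e-05), and Havcr2 differed by -0.22 (adjusted p = 0.152). IL-2 raised 7 and lowered 5 of the 15 at pH 7.4, where 80.4% of all genes were called. At pH 6.6, where 23.7% were called, it raised 7 and lowered 5, which were not all the genes called at pH 7.4, and the count of falls ranged from 2 to 3 when a replicate was left out.

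Of 12 corepressors and coactivators, 7 rose and 3 fell at pH 6.6 with IL-2 (median log2 fold change 0.46), and 10 rose and 1 fell without IL-2 (median 0.33), against 76.3% and 67.0% of all genes called. Without replicate 2, 6 rose without IL-2. The acetyltransferase gene Crebbp was 2.68-fold higher with IL-2 (adjusted p = 1.77e-14), the corepressor Ncor1 2.43-fold (adjusted p = 1.51e-12) and the coactivator Ncoa2 2.12-fold (adjusted p = 3.83e-09). The deacetylase gene Hdac2 fell by 1.13 on the log2 scale with IL-2 (adjusted p = 9.67e-13) and rose by 0.25 without (adjusted p = 0.0198), a rise whose call was lost without replicate 2 (0.19, adjusted p = 0.139) and without replicate 3 (0.19, adjusted p = 0.114). IL-2 raised 5 and lowered 6 of the 12 at pH 7.4, and raised 0 and lowered 4 at pH 6.6, with 80.4% and 23.7% of all genes called. The falls at pH 6.6 numbered 1 under RLE scaling, and 0 without replicate 1, 2, 3 or 4.

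**Figure D4:**
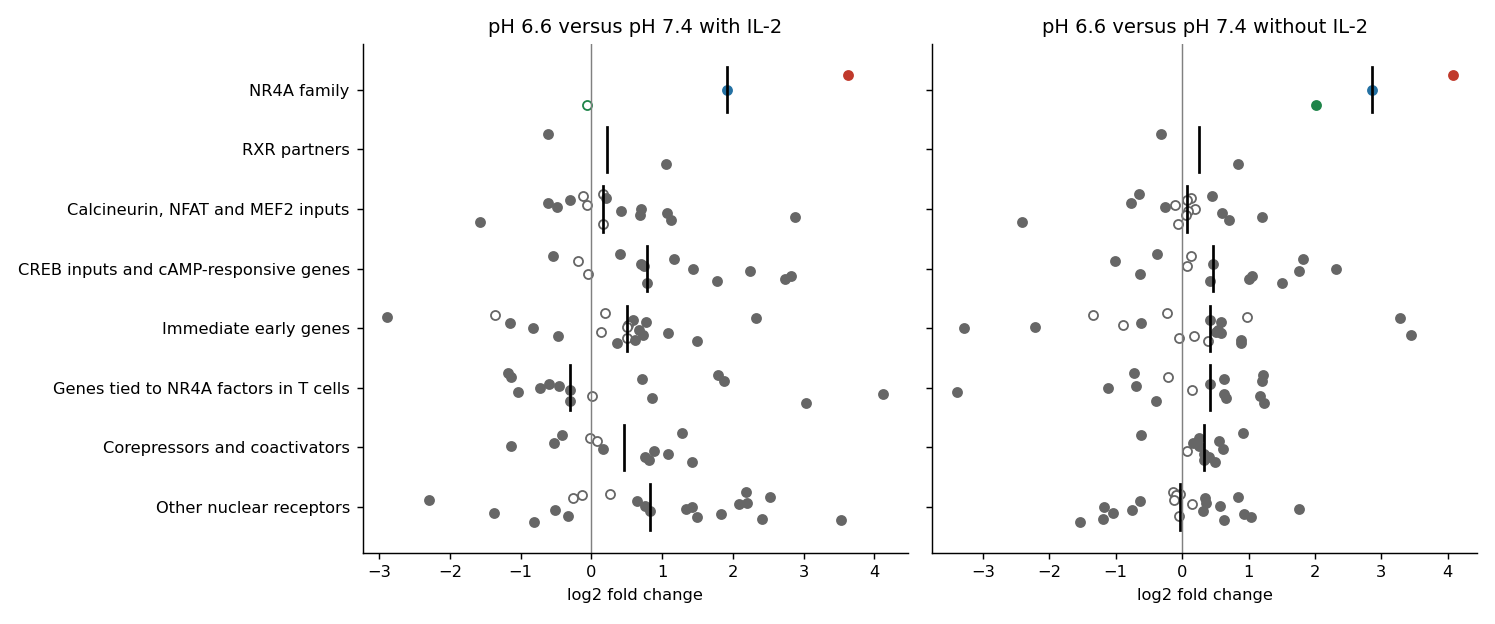
Log2 fold change (x axis) at pH 6.6 over pH 7.4 with IL-2 (left) and without IL-2 (right) for each tested gene of the family and of 7 gene lists (rows), with filled points for an adjusted p below 0.05 and a black bar at the median of the row. Nr4a1 (red), Nr4a2 (blue) and Nr4a3 (green) lie at 3.63, 1.92 and -0.06 with IL-2 and at 4.07, 2.86 and 2.01 without.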

How the data were processed

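RNA from OT-I CTLs was sequenced by the authors as stranded libraries of polyadenylated RNA with single reads on an Illumina HiSeq instrument. The authors deposited raw counts of reads per gene for each of the 35 libraries, without normalization. The submitters' processing notes name cutadapt 1.8, STAR 2.5.2b, HTSeq 0.6.1 and build GRCm38. The annotation release, the strand setting of the counting and the read length are not given in the sources used here. The last lines of every file hold reads given to no gene and were set aside, among them reads aligned to several places (32.8% to 48.3% of reads). Gene names and coordinates are those of GENCODE M21, which matched 48349 of 48709 identifiers. Total counts on genes ranged from 16721319 to 34033340, and counting error alone limits values that rest on few reads.

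Genes were filtered with filterByExpr (minimum count 10, 13819 kept) and scaled by TMM in edgeR 4.0.16 under R 4.3.3, which then fitted a single robust quasi-likelihood model to all 35 libraries, with the replicate number as a block, from which 16 contrasts were taken. The threshold was a Benjamini-Hochberg adjusted p of 0.05 over all genes tested. The block was used because the study's statistics section names paired tests for pairs of groups. The series' design text describes cultures of the same 5 biological replicates under each condition. As a check, libraries with the same number deviated together from the means of their groups, with r of 0.198 to 0.416 for pH 6.6 against 7.4 in IL-2 and a median of -0.0743 for other pairs. The same check gave r over 0.1 in 5 of 5 pairs for 8 of 9 contrasts and in 4 of 5 for IL-2 at pH 7. No 2 libraries of a group differed by less than the sampling noise (70 pairs, lowest chi-square per degree of freedom 6.24).

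Ratios between members were log2 ratios of CPM within a library. Promoters were RefSeq sequences of GRCm38.p6. The members, gene lists and tests were chosen with earlier results of these data known, and the lists were written from general knowledge. All 3 members were named in every contrast. From each list, up to 4 genes with the largest change at pH 6.6 over pH 7.4 with IL-2 were named, if their mean log2 CPM reached 1, and the result for 1 such gene is not reported here. The genes most like a member were the 5 with the highest r among genes whose mean log2 CPM reached 3. Alternatives were RLE scaling, DESeq2 1.42.0, a looser filter (1 count) and a stricter one (10 counts throughout), fits restricted to the groups compared or made without the block, and the omission of each replicate. For the lists they were added after the data were seen. The scripts were tested on simulated data.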

Additional observations from a re-analysis of the deposited data

Results flagged for a closer look

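Among 21 sets of 5 libraries (3 genes in 7 groups), 2 held a library that stood apart by Dixon's test, against about 1 in 20 by chance. At pH 6.6 with IL-2, the replicate 1 library had 7.92 CPM of Nr4a1 (Dixon's ratio 0.720), against 17.1 to 22.99 CPM in the other 4. Without replicate 1 throughout, the rise of Nr4a1 over pH 7.4 with IL-2 kept its call. At 0 h, the replicate 1 library had 10.7 CPM of Nr4a3 (Dixon's ratio 0.781), against 18.1 to 20.98 CPM in the other 4.

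The response to pH 6.6 differed between cells with and without IL-2, by the interaction test in edgeR, for Nr4a3 (-2.072 on the log2 scale, adjusted p = 2.7e-08, in 5 of 5 replicates) and for Nr4a2 (-0.947, adjusted p = 0.000673, in 5 of 5 replicates).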

How the results depend on the processing

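Over the members' log2 fold changes and ratios, 633 repeats under other settings were made, of which 561 kept the direction and the side of the threshold, 54 lost a call, 6 gained one and 12 changed sign. The rises of Nr4a1 and Nr4a2 at pH 6.6 over pH 7.4 and pH 7, with and without IL-2, those of Nr4a3 without IL-2, the effects of IL-2 on Nr4a2 and Nr4a3 at pH 7.4 and pH 7, and the interactions of Nr4a2 and Nr4a3 kept their call under all 11 alternatives. RLE scaling, DESeq2 and the stricter filter changed no call of a member. The cause of each change below was not tested.

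With a filter of 1 count, the difference of Nr4a3 between pH 6.6 and pH 7 with IL-2 was -0.011, and Nr4a1 lost its call against 0 h at pH 7.4 with IL-2 (-0.707) and also at pH 7 without IL-2 (-0.814). When only the groups compared were fitted, which leaves fewer libraries to estimate the spread, calls were gained by Nr4a2 (0.369) between pH 7 and pH 7.4 with IL-2, by Nr4a3 (-0.326) in the same comparison without IL-2, by Nr4a1 (0.474) for IL-2 at pH 7 and by Nr4a2 (-0.313) and Nr4a3 (-0.256) for IL-2 at pH 6.6. The Nr4a1 differences from 0 h at pH 7.4 with IL-2 (-0.745) and also at pH 7 without IL-2 (-0.761) lost theirs.

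Without the replicate block, Nr4a1 against 0 h at pH 7.4 with IL-2 was -0.702 and lost its call (adjusted p = 0.0543), and no other call of a member changed. For the ratios, pairing by replicate number allows an exact sign-flip test over 5 pairs, whose smallest p of 0.0625 cannot pass. The 10 called ratios, 1.726, 3.706 and 1.979 for acidity with IL-2, 1.162, 2.007 and 0.845 without, -1.668 and -1.195 for IL-2 at pH 7.4, and -1.577 and -0.853 against 0 h, all had an exact adjusted p of 0.0938 there.

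Leaving out each replicate in turn gave ranges of -0.235 to 0.071 for Nr4a3 at pH 6.6 over pH 7.4 with IL-2, -0.210 to 0.156 for Nr4a3 at pH 6.6 over pH 7 with IL-2, -0.115 to 0.344 for Nr4a1 at pH 7 over pH 7.4 without IL-2, and -0.009 to 0.352 for Nr4a1 under IL-2 at pH 7.4. The sign changes in these uncalled differences were 0.070, 0.071 and 0.013 without replicates 1, 4 and 5, -0.035 and -0.210 without replicates 2 and 3, -0.115 without replicate 2, and -0.009 without replicate 5, in that order. Against 0 h, the ranges were -1.089 to -0.511 for Nr4a1 and -0.089 to 0.093 for Nr4a2 at pH 7.4 with IL-2 (below 0 without replicate 4, -0.089, and replicate 5, -0.005), 0.247 to 0.480 for Nr4a2 at pH 7 with IL-2, -1.083 to -0.716 for Nr4a1 and -0.733 to -0.367 for Nr4a2 at pH 7.4 without IL-2, and -1.044 to -0.521 for Nr4a1 at pH 7 without IL-2.

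The ratios kept their direction with 4 libraries a group. They ranged from 1.533 to 1.917 (Nr4a1 over Nr4a2), 3.542 to 3.846 (Nr4a1 over Nr4a3) and 1.911 to 2.017 (Nr4a2 over Nr4a3) for acidity with IL-2, and from 0.982 to 1.406, 1.727 to 2.240 and 0.745 to 0.909 without IL-2. They ranged from -1.909 to -1.456 (Nr4a1 over Nr4a3) and -1.258 to -1.162 (Nr4a2 over Nr4a3) for IL-2 at pH 7.4, and from -1.893 to -1.294 and -0.927 to -0.666 against 0 h. Each of these 10 lost its call without replicate 1, 2 or 3, where fewer arrangements are possible (exact adjusted p from 0.0536 to 0.0857), and Nr4a1 over Nr4a2 without IL-2 also without replicates 4 and 5. The uncalled Nr4a1 over Nr4a3 ratio for IL-2 at pH 6.6 ranged from -0.090 to 0.132, with -0.011 without replicate 2 and -0.090 without replicate 5.

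The number of all genes past the threshold moved most at pH 7 over pH 7.4. With IL-2 it was 2623, and 1660 without the block, 4388 in a fit of only the groups compared, and 1374 and 1283 without replicates 2 and 3. Without IL-2 it was 232, and 56 without the block, 942 with only the groups compared, and 35, 90, 141 and 154 without replicates 2, 3, 4 and 5. For IL-2 at pH 6.6 it was 3278, and 5369 with only the groups compared and 2119 without replicate 4. For the gene lists, 1126 of 1188 repeats kept their count or call, and none of the genes named by size of change changed sign. Genes named after their values were seen were not part of these repeats. Values of Nr4a1 outside pH 6.6 rest on few reads, which widens their intervals.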
